A study of Mus musculus with 9 samples.

Results

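The Notch pathway was examined in mouse liver through 10 genes: the ligands Jag1, Jag2 and Dll4, the receptors Notch1 and Notch2, the DNA-binding factor Rbpj, and the target genes Hes1, Hey1, Heyl and Nrarp. They were found by gene name in a table of read counts, where each of the 10 names matched 1 of 54532 genes. The study measured RNA by sequencing in whole liver of 9 male wild-type C57BL/6 mice, in 3 groups of 3. The old Fabp4 shRNA mice were 20 months old and had received AAV9-shRNA-Fabp4, an adeno-associated virus 9 carrying a short hairpin RNA against the fatty acid carrier Fabp4, at 14 months, by tail vein and directly into subcutaneous white fat. The old control mice were of the same age and had received AAV9-shRNA-Neg, with a negative control hairpin, in the same way. The young mice were 8 weeks old, and the labels describe no injection for them, so that age and virus cannot be told apart in either comparison with young liver. The labels do not name the promoter of the hairpin or the cells it reached, and they describe the replicates of the Young and Old groups as independent. The 10 genes were chosen by their known roles in the pathway and selected on results of these same libraries, the levels and fold changes in the 3 comparisons below, so their values and fitted differences are a description and not a test.

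Notch signalling runs between touching cells. A ligand of the Jagged or Delta-like family on 1 cell binds a Notch receptor on its neighbour, the receptor is cut by ADAM proteases and then by gamma-secretase, and its freed intracellular part joins RBPJ and Mastermind-like proteins on DNA to switch on genes of the HES and HEY families, which are transcriptional repressors. In liver the pathway is known for directing the formation of bile ducts, through Jag1 and Notch2, and for its part in the endothelium of the sinusoids, through Dll4 and Notch1.

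Hes1 was the member whose 3 groups stood apart in the count table. It averaged 11.6 ± 2.37 CPM in old Fabp4 shRNA liver, 18.3 ± 2.06 CPM in old control liver and 7.18 ± 0.915 CPM in young liver (standard deviation, 3 livers in each group). CPM are read counts scaled to the depth of each library, after TMM scaling, edgeR's usual correction for library composition. Notch1 and Dll4 had higher means in both old groups than in young liver, with overlapping groups in all but 1 comparison. For the ligand Jag1, the receptor Notch2 and the factor Rbpj no fitted difference exceeded its standard error in the counts as deposited. Jag2 and Nrarp had few reads and were not tested, and Hey1 had at most 18 counts in a liver.

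Promoter sequences from RefSeq (GRCm38.p6, 250 bases before to 50 after a gene's start) were at hand for 7 of the 10 genes. There were 8 windows in all, since Rbpj has 2 starts in that set. Starts differ between annotations. The Notch1 window lies inside the gene as GENCODE places it (26457903 to 26516663), and both Rbpj windows lie inside Rbpj (53466152 to 53657362). None was at hand for the targets Hes1, Hey1 and Heyl, so no motif was searched for in these genes. The windows of Notch1 and Dll4 are printed because these are, besides Hes1, the tested genes with the highest fitted difference between old control and young liver, and because HES1 protein is known to bind N boxes. Capitals mark each N box, CACNAG on either strand. The first window is chr2:26503773-26504072 on the minus strand and the second chr2:119325534-119325833 on the plus strand, each printed 5′ to 3′ along the gene.
Notch1: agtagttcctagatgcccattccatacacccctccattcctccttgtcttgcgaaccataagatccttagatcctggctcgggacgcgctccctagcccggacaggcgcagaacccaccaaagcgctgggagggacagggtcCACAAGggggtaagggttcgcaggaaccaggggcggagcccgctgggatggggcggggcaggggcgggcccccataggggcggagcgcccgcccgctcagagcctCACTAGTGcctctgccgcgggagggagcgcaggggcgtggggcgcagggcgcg
Dll4: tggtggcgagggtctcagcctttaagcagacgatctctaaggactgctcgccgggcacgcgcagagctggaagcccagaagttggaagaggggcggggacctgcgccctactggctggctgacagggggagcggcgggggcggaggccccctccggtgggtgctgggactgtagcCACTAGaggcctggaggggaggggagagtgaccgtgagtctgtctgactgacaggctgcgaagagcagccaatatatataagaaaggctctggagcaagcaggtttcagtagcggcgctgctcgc
The Notch1 window holds 3 matches, of which the last 2 overlap on opposite strands in the 8 capitals around its RefSeq start. The Dll4 window holds 1 match, from base -75 to base -70 counted from the start. Of all 32851 windows of this length, 42.5% hold at least 1 N box, so a match is common, and 4 of the 7 genes (Notch1, Dll4, Notch2 and Nrarp) have one. The class C E box, CACGCG on either strand, was searched as well and occurs in 9.27% of all windows. It matched in the windows of Jag1, Notch2, Jag2 and Dll4, in the last from base -195 to base -190, and is left in small letters above. The core of the motif that RBPJ is known to bind, TGGGAA on either strand, occurs in 25.6% of all windows and among the 8 windows of these genes only in those of Rbpj. One of these sites, 65 to 60 bases before the first of the Rbpj starts, reads cgctcgcattTTCCCAggacccctcc, with the match in capitals on the opposite strand, and the 7-letter form GTGGGAA (6.38% of all windows) occurs in none of the 8. These are matches of letters in a short window, not measured binding sites.

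Total counts ran from 14609431 to 17125440 in the old Fabp4 shRNA libraries, from 15009727 to 15951036 in the old control libraries and from 14243344 to 16414852 in the young libraries, so that 3 counts, the floor of detection used here, stand for 0.175 to 0.211 CPM of total counts. Hepatocyte markers were abundant in every library, with a summed level of 79673 to 171953 CPM over 8 genes, as liver tissue should have. Counts of mitochondrial genes made up 4.15% to 8.47% of the old Fabp4 shRNA libraries, 4.42% to 14.5% of the old control libraries and 6.89% to 13.8% of the young libraries. The targeted gene did not separate the groups labelled by it. Fabp4 itself had levels of 11.2, 3.81 and 7.58 CPM among the livers labelled as given the Fabp4 hairpin (replicates 1, 3 and 6). Among old controls (replicates 1, 2 and 5) it had 7.21, 13.6 and 10.9 CPM. The log2 fold change between these groups was -0.49 ± 1.16 (SE), with an adjusted p of 0.960 in edgeR (-0.88 to -0.17 with 1 library left out). One young library, whose column carries a number that no young animal has in the labels, is called the unnumbered young library. It held 3303 CPM of 8 skeletal muscle genes, against 0.883 to 81.2 CPM in the other 8 libraries, the highest of these being old Fabp4 shRNA replicate 3. The deposited FPKM table (fragments scaled to gene length and depth) holds other values under the same column name, and the whole reads recovered from them were used in its place as an alternative, given below beside the Notch genes that it moves. For Fabp4 the unnumbered young library had 1015 counts but 26 recovered reads. The SE of 1.16 above came from a fit that included its counts. Without this library the Fabp4 difference between the old groups was -0.47 ± 0.38, and with the recovered reads -0.47 ± 0.36. Fitted on the 6 old libraries alone it was -0.49 ± 0.39. The adjusted p in these edgeR fits ran from 0.761 to 0.874.

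**Figure D1:**
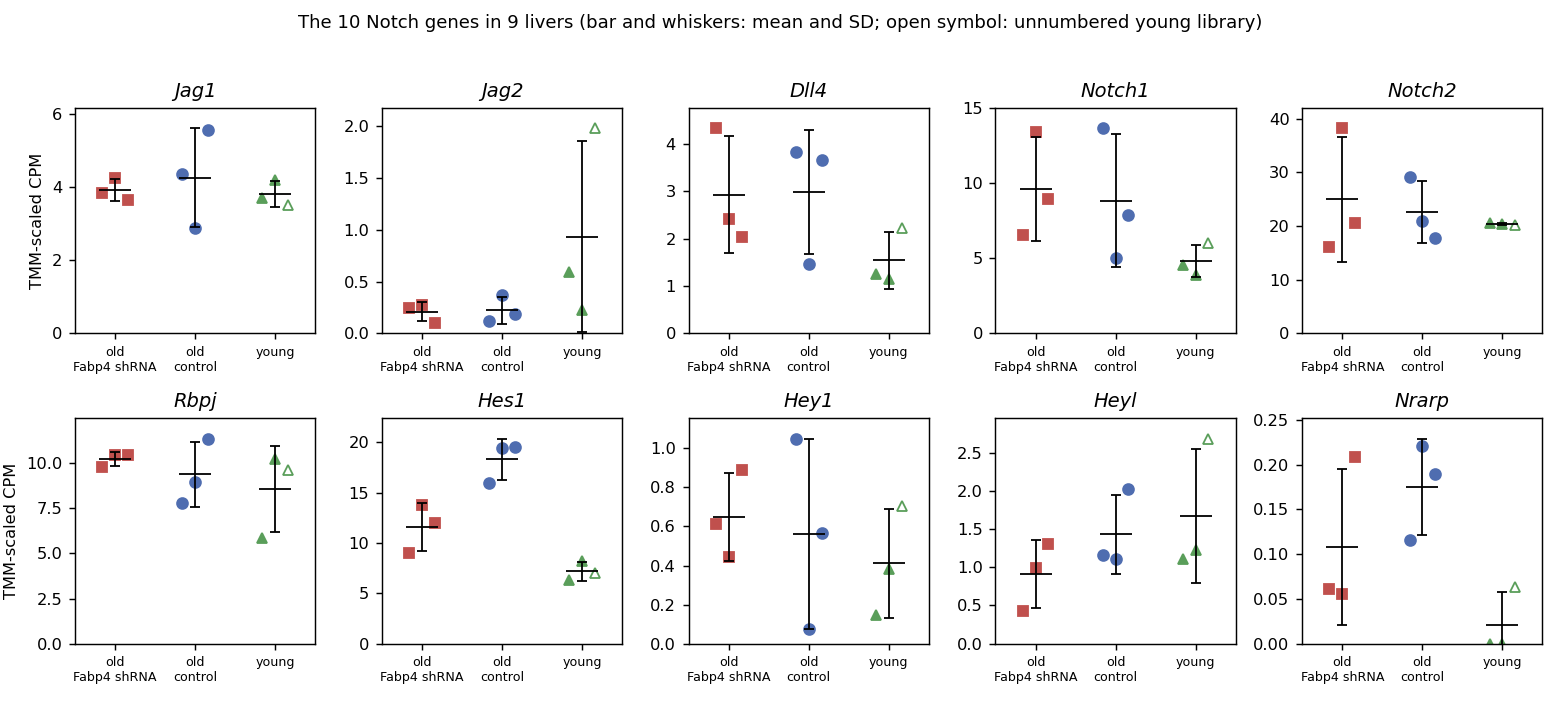
TMM-scaled CPM of the 10 Notch genes in each of the 9 livers, by group, with the group mean and standard deviation; each panel has its own vertical axis starting at 0, and the open symbol is the unnumbered young library. Hes1 is the panel in which the 3 groups separate, with old Fabp4 shRNA livers between 9.04 and 13.7 CPM, old control livers between 15.9 and 19.6 CPM and young livers between 6.36 and 8.17 CPM.

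Levels of different genes were set side by side only per length, as deposited FPKM, over the 8 libraries other than the unnumbered young one. Hes1 had the highest FPKM of the 10, with a median of 6.12 and a range of 3.03 to 9.23. Notch2 followed at a median of 1.86 FPKM (1.42 to 3.43), so that only the highest Notch2 library reached the lowest Hes1 library. Rbpj, Jag1, Dll4 and Notch1 had medians of 0.751, 0.661, 0.563 and 0.483 FPKM, with ranges that overlapped one another. Heyl and Hey1 stood at medians of 0.212 and 0.149 FPKM, again with overlapping ranges. Jag2 and Nrarp were lowest, at medians of 0.0325 and 0.0323 FPKM.

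Of the ligands, Jag1, the Jagged ligand that is mutated in human Alagille syndrome with its loss of bile ducts, was similar in level across the groups. Its values were 3.85, 4.25 and 3.66 CPM in old Fabp4 shRNA livers, 4.36, 2.87 and 5.56 CPM in old control livers, and 3.70, 4.20 and 3.51 CPM in young replicates 1 and 5 and the unnumbered young library. The old control livers spanned both other groups. The fitted log2 difference was 0.17 ± 0.33 (SE) in old control against young liver, -0.12 ± 0.33 in old Fabp4 shRNA against old control, and 0.04 ± 0.33 in old Fabp4 shRNA against young. Each was smaller than its standard error. With the recovered reads the differences from young liver were 0.06 ± 0.32 in old control and -0.04 ± 0.32 in old Fabp4 shRNA, and with 1 library left out the value in old control against young ran from -0.07 to 0.38.

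Dll4, the Delta-like ligand of endothelial cells (chromosome 2, 119325784 to 119335962, GRCm38), had the higher level in most old livers. It was 4.34, 2.43 and 2.04 CPM in the old Fabp4 shRNA livers, 3.84, 1.47 and 3.66 CPM in the old control livers, and 1.26, 1.14 and 2.23 CPM in young replicates 1 and 5 and the unnumbered library. Old control replicate 2 and old Fabp4 shRNA replicate 6 lay below the unnumbered young library, so the groups overlapped. Its log2 difference was 0.95 ± 0.49 in old control and 0.91 ± 0.49 in old Fabp4 shRNA, each against young liver, and both contrasts share the young libraries. Without old Fabp4 shRNA replicate 1, its group's difference from young liver was 0.52 ± 0.52. Between old Fabp4 shRNA and old control it was -0.04 ± 0.47. The gene Gm14207 overlaps Dll4 on the opposite strand and had 30 counts over all libraries. Since the strand setting is not stated, reads of the pair cannot be told apart. With the recovered reads the unnumbered young library was at 1.17 CPM of Dll4, below all 6 old livers, and the differences from young liver were 1.30 ± 0.46 in old control and 1.29 ± 0.46 in old Fabp4 shRNA.

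Jag2, the second Jagged ligand, gave 4, 5 and 2 counts in old Fabp4 shRNA livers, 2, 5 and 3 counts in old control livers, and 8, 3 and 31 counts in young livers, the last of these in the unnumbered library. One library thus supplied most of the young counts, and the gene did not pass the filter on low counts. The ratio of its share of all counts was 0.239 in old control against young liver (exact 95% counting interval 0.107 to 0.485) and 0.253 in old Fabp4 shRNA against young (0.117 to 0.5). With the 2 reads recovered for the unnumbered library in place of its 31 counts, these ratios were 0.701 (0.275 to 1.73) and 0.740 (0.3 to 1.79), so that the difference rests on a library that also holds muscle transcripts. Between old Fabp4 shRNA and old control liver the ratio was 1.06 (0.407 to 2.77). Such intervals cover counting error only.

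Of the receptors, Notch1, which acts with Dll4 in endothelium (chromosome 2, 26457903 to 26516663, GRCm38), was 6.53, 13.4 and 8.93 CPM in old Fabp4 shRNA livers, 13.7, 5.00 and 7.89 CPM in old control livers, and 4.58, 3.89 and 6.00 CPM in young replicates 1 and 5 and the unnumbered library. All 3 old Fabp4 shRNA livers lay above all 3 young livers, while old control replicate 2 lay below the unnumbered young library. The log2 difference was 0.99 ± 0.39 in old Fabp4 shRNA and 0.87 ± 0.39 in old control, each against young liver. Between the 2 old groups it was 0.12 ± 0.38. Without old Fabp4 shRNA replicate 3, the difference of old Fabp4 shRNA from young liver was 0.68 ± 0.40, and that from old control -0.19 ± 0.40. Without old control replicate 1, the difference of old control from young liver was 0.42 ± 0.38, and that between the old groups 0.58 ± 0.38. On the opposite strand Notch1 is overlapped by 0610009E02Rik and Gm13568, with 45 and 2 counts over all libraries, whose reads likewise cannot be told apart from those of Notch1.

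Notch2, the receptor that acts with Jag1 in bile duct formation, varied among old livers and hardly among young ones. It was 16.2, 38.2 and 20.5 CPM in old Fabp4 shRNA livers, 29.1, 21 and 17.8 CPM in old control livers, and 20.6, 20.5 and 20.1 CPM in young livers. Both old groups thus held values above and below all young values. The log2 differences were 0.29 ± 0.30 in old Fabp4 shRNA against young liver, 0.15 ± 0.30 in old control against young and 0.14 ± 0.30 in old Fabp4 shRNA against old control. Without old Fabp4 shRNA replicate 3, the difference from young liver was -0.15, and that from old control -0.30. Without old control replicate 1, the difference of old control from young liver was -0.07.

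Rbpj, the DNA-binding partner shared by all Notch receptors, was 9.77, 10.5 and 10.4 CPM in old Fabp4 shRNA livers, 7.79, 8.98 and 11.4 CPM in old control livers, and 5.84, 10.2 and 9.64 CPM in young replicates 1 and 5 and the unnumbered library. The groups overlapped, and young replicate 1 was the lowest of the 9. Its log2 differences were 0.26 ± 0.27 in old Fabp4 shRNA against young liver, 0.13 ± 0.27 in old control against young and 0.13 ± 0.27 in old Fabp4 shRNA against old control. With the recovered reads the differences from young liver were 0.42 ± 0.27 in old Fabp4 shRNA and 0.27 ± 0.27 in old control, and without young replicate 1 they were 0.04 ± 0.27 and -0.09 ± 0.27 for these groups.

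Of the targets, Hes1 (ENSMUSG00000022528, chromosome 16, 30064384 to 30067796, GRCm38, protein-coding, with no overlapping gene in the annotation) encodes a basic helix-loop-helix repressor that also represses its own gene. Its read counts were 148, 249 and 229 in the old Fabp4 shRNA livers, 274, 264 and 310 in the old control livers, and 86, 107 and 110 in young replicates 1 and 5 and the unnumbered library. After scaling its levels were 9.04, 13.7 and 12.0 CPM in old Fabp4 shRNA livers, 15.9, 19.4 and 19.6 CPM in old control livers, and 6.36, 8.17 and 7.02 CPM in young livers. Every old control liver lay above every old Fabp4 shRNA liver, and every one of these above every young liver. Between neighbours in this order the gap was small, at 13.7 CPM in the highest old Fabp4 shRNA liver against 15.9 CPM in the lowest old control liver, and at 9.04 CPM in the lowest old Fabp4 shRNA liver against 8.17 CPM in the highest young liver.

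The fitted log2 difference of Hes1 was 1.35 ± 0.24 in old control against young liver, a 2.55-fold higher level. It was -0.66 ± 0.23 in old Fabp4 shRNA against old control, or 0.633 of the control level, and 0.69 ± 0.24 in old Fabp4 shRNA against young, a 1.61-fold higher level. The 3 contrasts share libraries in pairs. With the recovered reads the unnumbered young library was at 9.91 CPM of Hes1, above old Fabp4 shRNA replicate 1 at 8.84 CPM, so these 2 groups then overlapped, as they did in the deposited FPKM. Old control liver stood above both other groups under each of the 5 scalings tried. The difference between old control and young liver was 1.14 ± 0.25 with the recovered reads and 1.31 ± 0.29 without the unnumbered library. That between old Fabp4 shRNA and young liver was 0.51 ± 0.25 with the recovered reads, and 0.55 to 0.84 with 1 library left out. Between old Fabp4 shRNA and old control liver the difference ran from -0.80 to -0.51 with 1 library left out. Of all 14025 genes tested, 29 (0.207%) had the order of Hes1 in CPM, old control above old Fabp4 shRNA above young with no overlap. The reverse order without overlap was found in 14 (0.0998%). The order was read off Hes1 in these same libraries, so its share is a description.

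Hey1, a HEY repressor of the vasculature, had 10, 8 and 17 counts in old Fabp4 shRNA livers, 18, 1 and 9 in old control livers, and 2, 5 and 11 in young livers. A range of 1 to 18 counts leaves its differences poorly determined, and the log2 difference of 0.46 ± 0.81 in old control against young liver was -0.33 without old control replicate 1, 1.07 ± 0.98 without the unnumbered young library, or 1.03 ± 0.81 if its recovered reads were used. The other differences of Hey1 were 0.17 ± 0.77 in old Fabp4 shRNA against old control and 0.63 ± 0.80 in old Fabp4 shRNA against young, the second of them 1.23 ± 0.80 with the recovered reads. With 1 library left out they ran from -0.31 to 0.96 and from 0.24 to 1.28. Heyl, a HEY family gene of vascular mural cells, had 7, 18 and 25 counts in old Fabp4 shRNA livers, 20, 15 and 32 in old control livers, and 15, 16 and 42 in young livers, the last in the unnumbered library. Its log2 difference of -0.23 ± 0.55 in old control against young liver was 0.19 ± 0.52 with the recovered reads, and ran from -0.56 to 0.27 with 1 library left out. It was -0.64 ± 0.56 in old Fabp4 shRNA against old control and -0.87 ± 0.56 in old Fabp4 shRNA against young, the second of them -0.42 ± 0.52 with the recovered reads. With 1 library left out they ran from -0.99 to -0.31 and from -1.22 to -0.34.

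Nrarp, a Notch target whose protein dampens the pathway by binding the receptor's intracellular part, gave 1, 1 and 4 counts in old Fabp4 shRNA livers, 2, 3 and 3 in old control livers, and 0, 0 and 1 in young livers. It did not pass the filter. The ratio of shares in old control against young liver was 8.04 with an exact 95% counting interval of 1.08 to 357, and with the recovered reads 2.43 with an interval of 0.583 to 14.2. Set against young liver, old Fabp4 shRNA liver had a ratio of 5.79 (0.703 to 266), and 1.75 (0.374 to 10.8) with the recovered reads. Between old Fabp4 shRNA and old control it was 0.720 (0.206 to 2.37). At this depth a difference in Nrarp could not be told from counting error once the recovered reads were used.

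**Figure D2:**
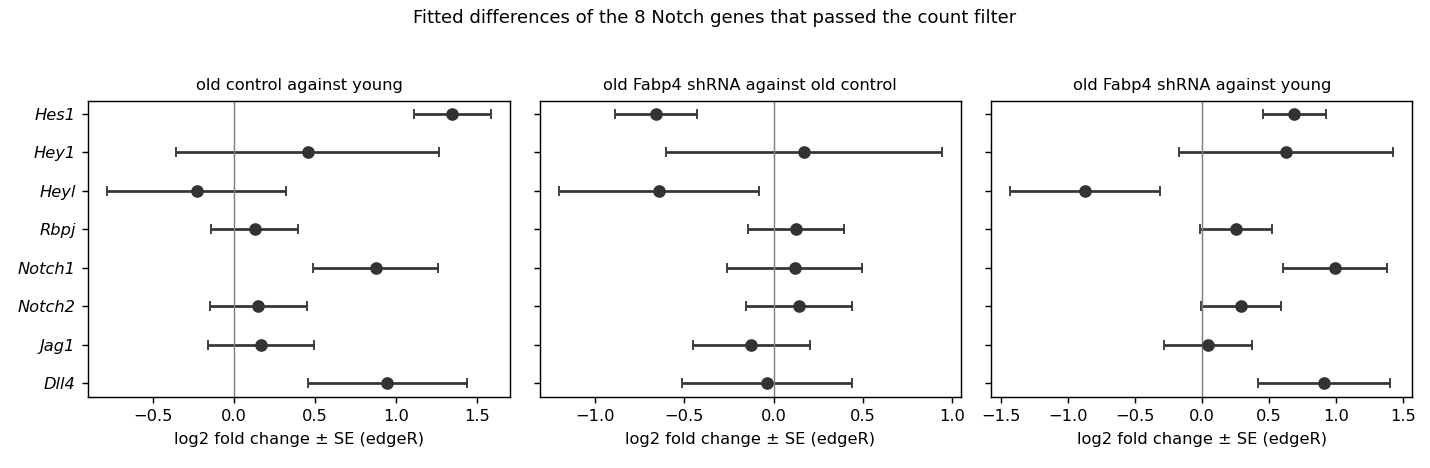
Log2 fold change with its standard error from edgeR for the 8 Notch genes that passed the count filter, in the 3 comparisons; points right of 0 are higher in the first-named group. Hes1 lies at 1.35, -0.66 and 0.69 from left to right, and the intervals of Hey1 and Heyl are the widest.

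Counted over the list, 7 of the 8 tested genes had a fold change above 0 in old control against young liver, with a median of 0.31, where 51.1% of all tested genes lay above 0 and their median was 0.01. By edgeR's quasi-likelihood test with Benjamini-Hochberg adjustment 0 of the 8 passed an adjusted p under 0.05, where 0.0357% of all tested genes did, and their adjusted p ran from 0.139 (Hes1) to 0.911 (Heyl). With a raw p below 0.05 there were 2, Hes1 and Notch1, both higher (background 6.42%), and DESeq2 called 1, Hes1 (background 1.2%). Hes1 was the 1 gene of the 8 with groups that did not overlap, where 8.89% of all tested genes were higher and 8.26% lower without overlap. Because these contrasts were known when the genes were proposed, these shares are given as description.

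In old Fabp4 shRNA against old control liver 4 of the 8 lay above 0 and 4 below, with a median of 0.04, where 48.6% of all tested genes lay above 0. None passed edgeR's adjusted test, in which 0% of all genes did, nor DESeq2's (background 0.0499%). With a raw p below 0.05 there was 1 gene, Hes1, which was lower (background 3.48%, or 6.75% in either direction). It was also the 1 gene lower without overlap (background 5.67%), and 0 were higher without overlap (background 6.02%). In old Fabp4 shRNA against young liver 7 of 8 lay above 0, with a median of 0.46, where 52.2% of all tested genes lay above 0. By edgeR 0 passed (background 0.057%), and 2 genes, Hes1 and Notch1, were higher at an unadjusted p under 0.05 (background 4.43%) and without overlap (background 6.79%, against 6.67% lower), with 0 called by DESeq2 (background 0.884%). With 1 library left out, the median in old control against young liver ran from 0.15 (6 of 8 above 0, without young replicate 1) to 0.66 (7 of 8, without old control replicate 2). It was 0.20 without old control replicate 1 and 0.65 without the unnumbered young library, and the number above 0 was 5 without old control replicate 1 or 5. With the recovered reads 8 of 8 lay above 0, with a median of 0.59 and 3 at a raw p below 0.05. For old Fabp4 shRNA against young liver, leaving out old Fabp4 shRNA replicate 3 left 5 of 8 above 0 and 0 at that p, and leaving out young replicate 1 gave a median of 0.27. For old Fabp4 shRNA against old control, the median ran from -0.32 without old control replicate 2 to 0.10 without old control replicate 1.

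The other genes of the pathway came from 8 lists of 66 genes, of which 56 passed the filter. The 10 that did not were the ligands Dll3, Dlk1, Dlk2 and Dner, the HES and HEY genes Hes2, Hes3, Hes5, Hes7 and Hey2, and the ubiquitin ligase Neurl1a. In old control against young liver 36 of 56 had a fold change above 0, with a median of 0.10, where 51.1% of all tested genes lay above 0, and 0 passed edgeR's adjusted test (background 0.0357%). With a raw p below 0.05, 8 of them were higher and 1 was lower, where the shares among all genes were 6.42% and 4.07%, and DESeq2 called 2, Hes6 and Sox9 (background 1.2%). In old Fabp4 shRNA against old control liver 26 of 56 lay above 0 (background 48.6%), 0 passed in edgeR (background 0%) or DESeq2 (background 0.0499%), and with a raw p below 0.05 there were 2 on the higher side and 0 on the lower, with a background of 3.27% and 3.48%. With old Fabp4 shRNA set against young liver, 40 of 56 lay above 0 (background 52.2%), 0 passed in edgeR (background 0.057%) or DESeq2 (background 0.884%), and 5 were higher and 1 lower at that p, with a background of 4.43% and 4.5%.

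Hes6, a relative of Hes1 whose protein was found in mouse neural cells to oppose HES1, ran the other way. It was 38.6, 23.7 and 33.3 CPM in old Fabp4 shRNA livers, 24.8, 16.9 and 14.4 CPM in old control livers, and 41.0, 39.0 and 39.3 CPM in young livers. Every old control liver lay below every young liver. In the deposited FPKM the highest old Fabp4 shRNA liver, at 20.2, lay above the unnumbered young library, at 18.9, so these groups overlapped there, though not in CPM, and old Fabp4 shRNA replicate 3 lay within the range of the old controls. The log2 difference was -1.09 ± 0.25 in old control against young liver (adjusted p = 0.192 in edgeR, 0.0100 in DESeq2) and 0.77 ± 0.25 in old Fabp4 shRNA against old control (adjusted p = 0.728 in edgeR).

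Sox9, a transcription factor of bile duct cells that Notch is known to activate in liver, was 1.77, 12.2 and 3.45 CPM in old Fabp4 shRNA livers, 10.6, 12.9 and 9.03 CPM in old control livers, and 2.81, 2.29 and 2.94 CPM in young livers. The old control livers were all above the young livers, and old Fabp4 shRNA replicate 3 was the 1 liver of its group at their level. Between old control and young liver its log2 difference came to 2.01 ± 0.57 (adjusted p = 0.296 in edgeR, 0.0272 in DESeq2), and the call also came in edgeR on the 6 libraries of that comparison (adjusted p = 0.0325). Spen, a corepressor that binds RBPJ, was 22.5, 29.8 and 23.4 CPM in old Fabp4 shRNA livers, 29.5, 23.8 and 29.2 CPM in old control livers, and 18.6, 12.6 and 17.5 CPM in young livers. All 6 old livers were above all 3 young livers, with log2 differences of 0.63 ± 0.22 in old Fabp4 shRNA and 0.76 ± 0.22 in old control (adjusted p = 0.461 and 0.296 in edgeR).

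**Figure D3:**
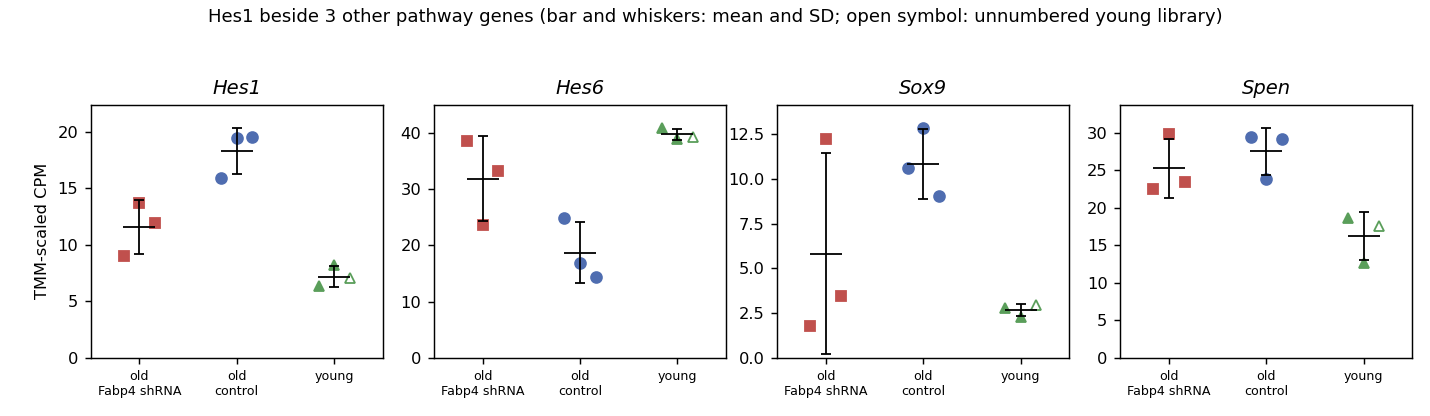
TMM-scaled CPM of Hes1 and of Hes6, Sox9 and Spen, the 3 other pathway genes with the smallest p in old control against young liver, by group, with mean and standard deviation. Hes6 is lowest in the old control livers (14.4 to 24.8 CPM), where Hes1 is highest, and Sox9 is split within the old Fabp4 shRNA group (1.77 to 12.2 CPM).

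The other genes named by the rule on smallest p did not pass in edgeR or DESeq2. In old control against young liver Dtx4, of the Deltex family of ubiquitin ligases, had a log2 difference of 1.26 ± 0.50 (adjusted p = 0.421 in edgeR). In old Fabp4 shRNA against old control liver these were the RBPJ coactivator Snw1 at 1.01 ± 0.44, the acetyltransferase Kat2b at 0.51 ± 0.25 and the protease Furin, which cuts the Notch precursor, at 0.62 ± 0.33, with adjusted p of 0.728 to 0.744. Without old Fabp4 shRNA replicate 3, Snw1 was at 0.64 and Furin at 0.27. With old Fabp4 shRNA set against young, they were Maml1, a Mastermind-like coactivator, at 0.77 ± 0.27, the Deltex relative Dtx3l at 0.71 ± 0.25 and the corepressor Ncor1 at 0.62 ± 0.24, with adjusted p of 0.461 to 0.495, and Ncor1 was at 0.31 without the same library. By role, the receptor-cleaving enzymes were evenly split in old control against young liver, with 5 of 10 above 0 and a median of 0.01. Corepressors had 6 of 12 above 0 (median 0.03), glycosylation genes 3 of 5 (0.03) and coactivators 6 of 8 (0.22). Genes of ligand endocytosis and receptor turnover lay above 0 in 13 of 15, with a median of 0.35. The share above 0 among all tested genes was 51.1%. In old Fabp4 shRNA against old control 7 of the 15 turnover genes lay above 0 (median -0.01, background 48.6%). With old Fabp4 shRNA set against young, 14 of 15 did (0.16, background 52.2%). None of these members passed in edgeR in old control against young liver (background 0.0357%). The cleavage, coactivator and turnover groups hold genes that act in other pathways as well.

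**Figure D4:**
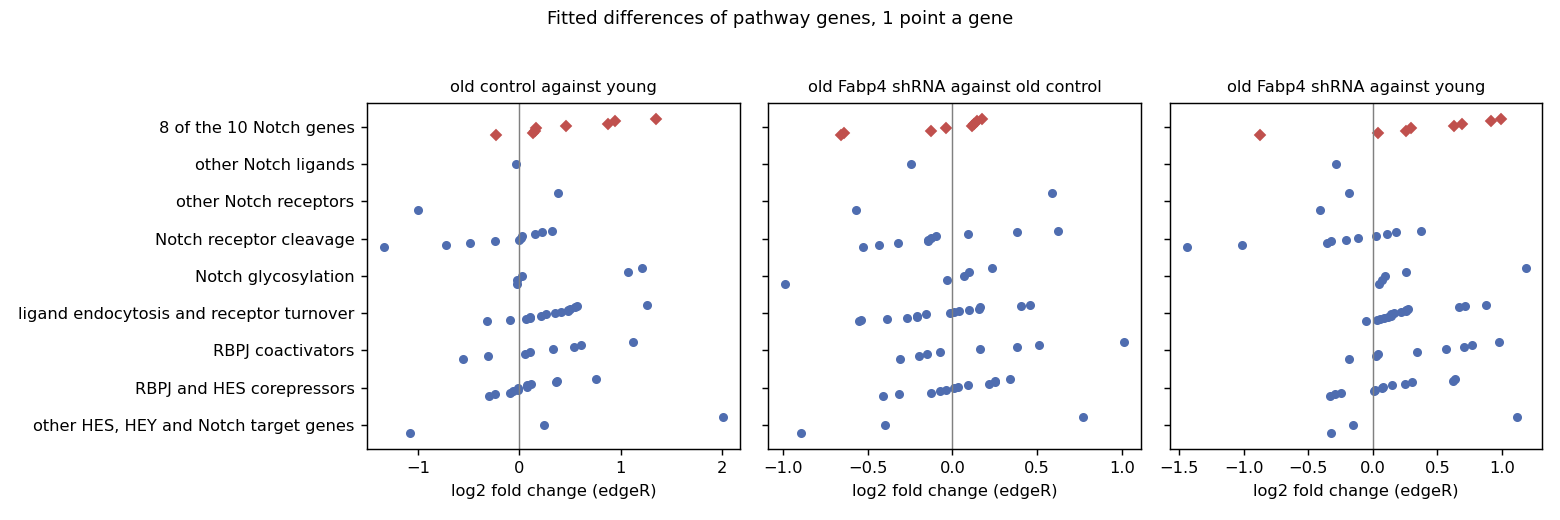
Log2 fold change from edgeR of the 8 tested Notch genes (diamonds) and of the 56 tested genes of the 8 other pathway lists (circles), 1 point a gene, in the 3 comparisons. Most lists straddle 0, and Sox9 at 2.01 is the point farthest to the right in old control against young liver.

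Markers of cell types in which Notch genes are expressed also varied between livers. In bulk liver, more cells of a type and more RNA per cell cannot be told apart. The 10 sinusoidal endothelial markers, all detected in every library, summed to 315, 158 and 153 CPM in old Fabp4 shRNA livers, 330, 164 and 259 CPM in old control livers, and 159, 132 and 98.0 CPM in young livers. The 3 livers with the highest sums, old control replicates 1 and 5 and old Fabp4 shRNA replicate 1, were also the 3 with the highest Dll4. Old control replicate 2, with the lowest sum of its group, had the lowest Dll4, Notch1, Jag1 and Hey1 of its group, while its Hes1 of 19.4 CPM was close to the highest. Old Fabp4 shRNA replicate 1 had the highest endothelial sum of its group, but the lowest Notch1 of its group, 6.53 CPM, and the lowest Hes1 of the old livers, while replicate 3, with a sum of 158 CPM, had 13.4 CPM of Notch1. All 10 markers had fold changes above 0 in old control against young liver, where 51.1% of all tested genes did, with a median of 1.23. Of these markers 8 were higher at a raw p below 0.05 (background 6.42%), 0 passed edgeR's adjusted p (background 0.0357%), and DESeq2 called 1, Clec4g (background 1.2%). The 8 vascular endothelial markers differed less. They summed to 70.6, 50.1 and 44.9 CPM in old Fabp4 shRNA livers and 69.6, 40.2 and 45.8 CPM in old control livers. In young replicates 1 and 5 and the unnumbered library the sums were 39.5, 29.1 and 70.5 CPM. In old control against young liver 6 of these 8 lay above 0, with a median of 0.21, and at a raw p below 0.05 0 were higher (background 6.42%) and 1 lower (background 4.07%). The part of either marker list in the differences of Dll4 and Notch1 was not tested.

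**Figure D5:**
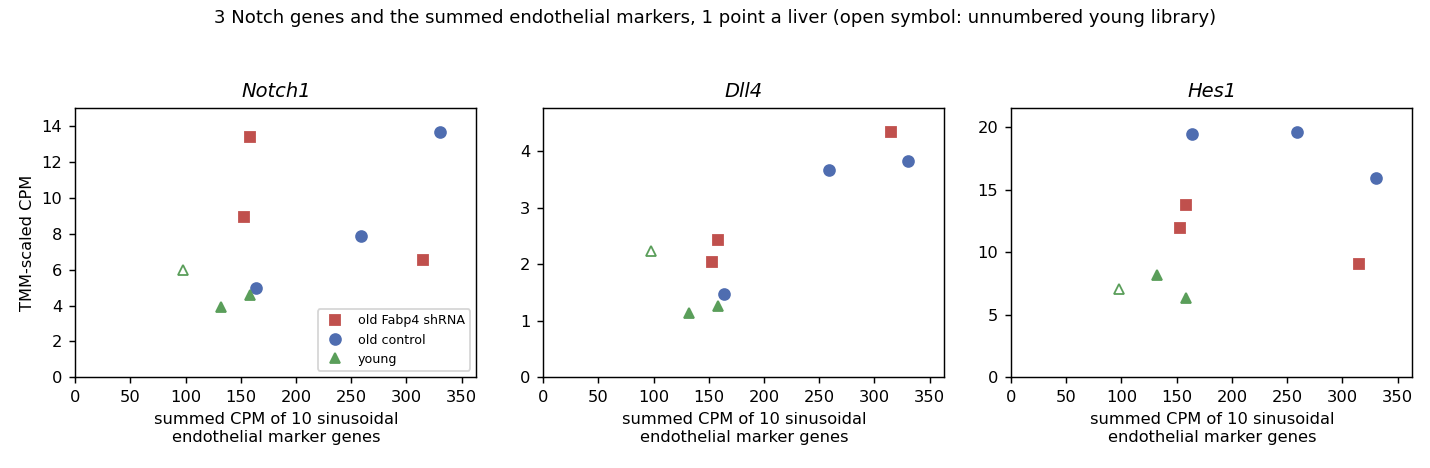
TMM-scaled CPM of Notch1, Dll4 and Hes1 against the summed CPM of 10 sinusoidal endothelial marker genes, 1 point a liver, with the unnumbered young library as an open symbol. The 3 livers with marker sums of 259 to 330 CPM have the highest Dll4, while for Hes1 the old control livers lie highest at marker sums from 164 to 330 CPM.

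The 8 bile duct markers, which include Sox9 and Spp1, summed to 42.1, 61.2 and 60.2 CPM in old Fabp4 shRNA livers, 101, 111 and 193 CPM in old control livers, and 89.6, 80.7 and 79.3 CPM in young livers. Old control liver was thus highest for both this sum and Hes1, while old Fabp4 shRNA liver was lowest for the sum and intermediate for Hes1. Spp1 alone gave 17.6, 23.7 and 34.2 CPM of the sum in old Fabp4 shRNA livers and 50.3, 66.5 and 142 CPM in old control livers. In young livers it gave 51.7, 47.9 and 47.7 CPM. The keratin Krt19, which defines bile duct cells, was at or under 1.52 CPM in every library. Markers of recruited myeloid cells, 8 genes, summed to 54.6, 49.9 and 76.0 CPM in old Fabp4 shRNA livers, 218, 115 and 77.1 CPM in old control livers, and 42.9, 54.4 and 73.7 CPM in young livers. Immediate early genes, a class whose transcription answers acute stimuli, summed to 53.9, 197 and 195 CPM over 8 genes in old Fabp4 shRNA livers, 191, 209 and 107 CPM in old control livers, and 89.2, 91.6 and 103 CPM in young livers. Within the old Fabp4 shRNA group the liver with the lowest sum, replicate 1, also had the lowest Hes1, but old control replicate 5, at 107 CPM, had the highest Hes1 of all. Fos itself was 1.65, 3.81 and 3.55 CPM in old Fabp4 shRNA livers, 3.95, 2.87 and 3.16 CPM in old control livers, and 0.370, 1.83 and 0.511 CPM in young livers. Dbp, a clock output gene that marks the time of day, was 53.5, 0.496 and 4.86 CPM in old Fabp4 shRNA livers. It was 0.581, 0.589 and 16.4 CPM in old control livers, and 100.3, 90.1 and 32.4 CPM in young livers. The 13 clock genes, Dbp among them, summed to 808, 536 and 384 CPM in old Fabp4 shRNA livers. The sums were 462, 468 and 491 CPM in old control livers and 595, 655 and 416 CPM in young livers. Clock genes moved both ways in old control against young liver, with 5 higher and 5 lower without overlap (background 8.89% and 8.26%). By adjusted p, edgeR called 1 of the 13 (background 0.0357%) and DESeq2 called 2, Noct and Npas2 (background 1.2%). The part of these lists in the Hes1 values was not tested.

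Over the 9 libraries, the genes whose log2 CPM was most like that of Hes1 among all 14025 tested were Ctcflos, Cdk17 (a cyclin-dependent kinase), Rai14 (an actin-associated protein), Tmem39a (a membrane protein) and Gm15401. Likeness was measured as Pearson's r, which lay between 0.92 and 0.94 for these 5, the highest of 14025 values and so chosen for being high. Gm15401 stood at 3.05, 3.92 and 2.77 CPM in old Fabp4 shRNA livers, 5.29, 6.11 and 7.76 CPM in old control livers, and 0.148, 0.305 and 0.255 CPM in young livers. None of the other Notch genes was among them: by the same measure Notch1 lay above 87.0% of the genes tested, Rbpj above 78.8%, Dll4 above 78.2%, Notch2 above 69.4%, Jag1 above 66.8%, Heyl above 51.6% and Hey1 above 50.2%.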

How the data were processed

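RNA from 9 livers was compared. Per the submitters' processing notes, HISAT2 aligned the reads to GRCm38.p6. Which program counted them, with what strand setting and annotation release, was not given in the sources used here, nor were filters. The authors deposited whole read counts per Ensembl gene and FPKM (scaled by them to gene length and depth), both for 54532 genes, and 0 columns matched no sample or group. One young column carries a number no young title has. In 8 columns the ratio of FPKM to count was fixed per gene (relative tolerance 0.001) for 100% of 10483 genes with at least 20 counts, and in that column for 0.229%. Its FPKM was scaled back to whole reads (100% of 16630 low values within 0.05 of a whole number; 226 genes not recovered; 11805823 reads).

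The count test was that of edgeR 4.0.16 (R 4.3.3): filterByExpr by group (14025 genes kept, 8 of the 10 Notch genes), TMM factors from 0.825 to 1.15, and a robust quasi-likelihood fit to all 9 libraries with 6 residual degrees of freedom. P-values are two-sided, adjusted over all tested genes. SE is the log2 fold change over the square root of F. The scripts were tested on simulated data. Alternatives were DESeq2 1.42.0, its size factors in edgeR, no filter, the 6 libraries compared, the recovered reads, animal numbers as a block, each library left out in turn and, for Hes1, other scalings chosen after seeing the data. Positions came from GENCODE mouse release 21. The members and gene lists were chosen with earlier results of these data known. Named are the 10 members, Fabp4, the 4 other pathway genes with the smallest p in each comparison, and the 5 genes most like Hes1 by Pearson's r of log2 CPM with a prior count of 2.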

Additional observations from a re-analysis of the deposited data

How the results depend on the processing

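The count of genes called in edgeR was 5 in old control against young liver, 0 in old Fabp4 shRNA against old control (946 at an unadjusted p under 0.05) and 8 in old Fabp4 shRNA against young. In the same order it was 137, 8 and 94 with no filter, 168, 7 and 124 in DESeq2, and 158, 73 and 23 with the replicate block. On the 6 libraries compared it was 15 in old control against young and 0 in old Fabp4 shRNA against young, and with the recovered reads 10 and 62. With 1 library left out it ran from 1 to 10, from 0 to 1 and from 0 to 37, in each comparison highest without old Fabp4 shRNA replicate 1, and lowest without young replicate 1 in the comparisons with young liver. Among the other pathway genes 0 were called in each comparison. In old control against young liver this was 1 with no filter, 2 in DESeq2, 1 on the 6 libraries and 1 with the block. It was 0 in every fit with a library left out. Hes1 passed an adjusted p under 0.05 in old control against young liver in DESeq2 (0.000974), with no filter (0.00502) and without old Fabp4 shRNA replicate 1 (0.0486), and in the other 12 alternatives its adjusted p ran from 0.0532 to 0.427. Its log2 difference there ran from 1.14 to 1.45. Animal numbers are shared only as numbers: the deviations of same-numbered old control and young livers correlated at 0.11 and 0.03. The block leaves 1 residual degree of freedom and gives each library with an unshared number a term of its own. Such libraries then no longer inform the group means, and the old Fabp4 shRNA group rests on replicate 1 alone. With the block, the log2 difference in old Fabp4 shRNA against old control was -0.20 for Furin, 0.42 for Fabp4 and -0.94 for Notch1. For the old Fabp4 shRNA group these values thus describe 1 liver. Depth limits Hey1, Jag2 and Nrarp.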
